A study of Mus musculus with 8 samples.

Results

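The cells described here are the CD135-high, Dach1-GFP-high wells of mouse bone marrow LSK cells, the lineage-negative, Sca1-positive, cKit-positive fraction that holds blood stem cells and multipotent progenitors. They were chosen by measured fluorescence alone: within each of 8 plates, among wells with at least 1000 gene counts and at least 500 genes, a well was a member when its CD135 and its Dach1-GFP both lay above the plate's median. The rule found 331 of 2715 kept wells, between 33 and 54 per plate, or 9.82% to 15.9% of a plate's kept wells. The other wells fell into 1025 CD135-high GFP-low, 1025 CD135-low GFP-high and 334 CD135-low GFP-low wells. The members are thus the smallest of these quadrants, where both channels were high.

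The study sorted single cells into plates with index sorting, which records each cell's fluorescence, and made CEL-seq2 libraries, a barcoded 3′ counting method. All cells came from 1 population of reporter mice aged 8 to 16 weeks, with no treatment. The mice carried the Dach1bio-GFP allele, in which a biotin tag precedes the stop codon in exon 12 of Dach1 and an IRES-GFP follows it, the neomycin cassette having been removed by Flpe recombinase. Marrow was enriched on cKit before the sort, and the labels do not give the animal behind a plate, so p-values reflect only how plates varied, and that variation may be technical. Plates came in 2 sets of 4, LC and LCE, stained with different panels. CD48, CD16/32, PIR-A and light scatter were used here from the LCE plates only.

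CD135 is the surface form of Flt3, the receptor tyrosine kinase for FLT3 ligand, and its rise marks the passage from stem cells to multipotent and lymphoid-primed progenitors. Dach1 encodes a nuclear cofactor of the retinal determination family, and the reporter's GFP is made from the same transcript. Hlf encodes a PAR bZIP transcription factor found in stem cells and early progenitors and lost as they mature, and Kit encodes the receptor for stem cell factor.

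The members lay between their neighbours in both channels. Their median CD135 per plate was 0.533 times that of the CD135-high GFP-low wells of the same plate (range over 8 plates 0.434 to 0.703), and their median GFP was 0.746 times that of the CD135-low GFP-high wells (0.575 to 0.880). On the 4 LC plates the member medians of CD135 were 1681 to 5609 fluorescence units, against 3712 to 11747 in CD135-high GFP-low and 395 to 1278 in CD135-low GFP-high wells. On the LCE plates they were 7436 to 8874, against 11828 to 12729 and 1706 to 2791. The wells just inside and just outside a threshold were close. For CD135 the pair was 3405 and 3401 on LC190 and 4848 and 4663 on LCE410. For GFP it was 1518 and 1497 on LC190 and 774.5 and 774.2 on LCE410. Wells beside a median are neighbours in rank, so these pairs do not show the shape of the distribution. These values chose the cells and are a description.

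The labelled markers were present. Flt3 RNA had at least 1 count in 245 of the 331 wells (74.0%), Hlf in 286 (86.4%), Kit in 285 (86.1%) and Dach1 in 71 (21.5%). Flt3 RNA in the members was 95.4 CPM (counts scaled to a common total per sum of wells) on the lowest plate, 179 on the median plate and 258 on the highest, between the CD135-low GFP-high wells (61.9, 101 and 145) and the CD135-high GFP-low wells (209, 306 and 402). Dach1 RNA was 9.95, 30.1 and 59.4 CPM in the members, 20.5, 44.6 and 76.5 in the CD135-low GFP-high wells and 4.91, 15.2 and 26.7 in the CD135-high GFP-low wells. On 8 of 8 plates Flt3 and Dach1 RNA of the members lay between those of the neighbours, as the medians of CD135 and GFP did. No test is given, because CD135 and GFP report these genes. Each CPM value is from the summed counts of the wells of 1 quadrant on 1 plate.

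The members' counts summed to 200919 to 306724 per plate on the LCE plates and 566172 to 774927 on the LC plates. Members were deeper and richer than their neighbours: the plate median was 10534 counts per well on the median plate, against 9270 in CD135-low GFP-high wells (higher on 7 of 8 plates, exact sign-flip permutation test, two-sided, p = 0.016, adjusted p = 0.023 over 9 tests) and 9684 in CD135-high GFP-low wells (7 of 8, adjusted p = 0.023 by the same exact test). They held 3563 genes per well, against 3272 and 3287 (8 of 8 plates in both, adjusted p = 0.018 by the exact test, which cannot give a raw p under 0.0078 with 8 plates). Mitochondrial counts were 5.02% in members and 5.02% in CD135-low GFP-high wells on the median plate, with a mean difference of -0.16 points (adjusted p = 0.035, exact test). Wells with 3 or more detected genes of another cell type numbered 35 of 331 members and 314 of all 2715 kept wells. By type, 8 member wells (2.42%) showed B lineage genes and 22 (6.65%) macrophage genes. Mature neutrophil genes were shown by 5 (1.51%) and plasma cell genes by 1 (0.302%). T or NK cell genes were shown by 0 of 331. That allows a share of wells with 3 or more such genes of up to 0.906% (3 counts of the total, counting error only). It does not limit cells with fewer detected genes. Macrophage genes marked 37 of 1025 CD135-high GFP-low wells (3.61%) and 43 of 1025 CD135-low GFP-high wells. The B lineage share was 30.5% in CD135-low GFP-low wells.

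**Figure D1:**
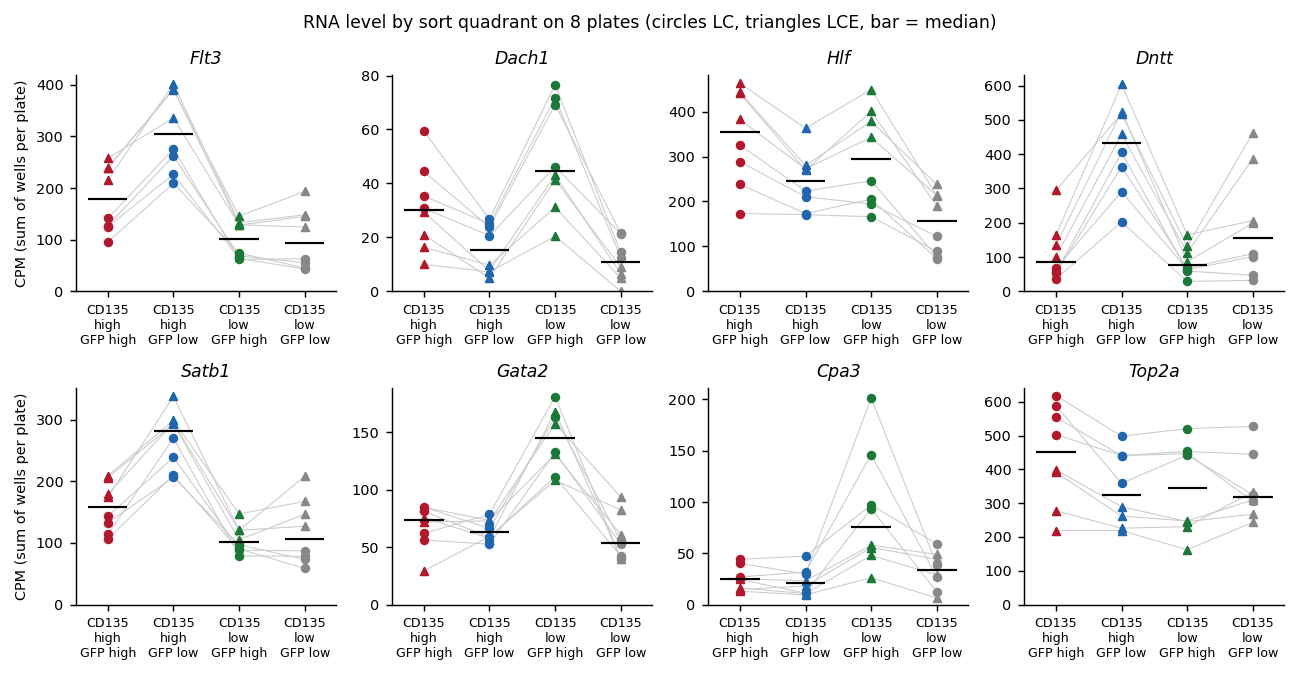
RNA level in CPM (linear axis) of 8 genes by sort quadrant, 1 point per plate joined by grey lines, LC plates as circles, LCE plates as triangles, black bar at the median of 8 plates. The members, leftmost in each panel, lay between their neighbours in Flt3, Dach1 and Satb1, were highest in Hlf on 8 of 8 plates, and were below the CD135-low GFP-high wells in Gata2 without overlap.

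Against the CD135-low GFP-high wells, which share the high reporter but carry less CD135, the members held less RNA of the mast cell, platelet and Gata2 kind and more of a few lymphoid and cell division genes. Of 9160 genes tested with edgeR's quasi-likelihood test with the plate as a block, 51 were higher in the members (0.557% of those tested) and 29 lower (0.317%) at an adjusted p under 0.05, and 805 had an unadjusted p under 0.05. The median log2 difference of all genes was 0.01. Without the plate block 3 genes were called.

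Gata2, a zinc finger factor of stem, mast cell and megakaryocyte programs, was among the genes called lower. It was at 29.3, 73.8 and 84.9 CPM in the members (lowest, median and highest plate) and at 108, 145 and 181 CPM in the CD135-low GFP-high wells. Every member value lay under every CD135-low GFP-high value, and the log2 difference was -1.08 ± 0.12 (SE, edgeR adjusted p = 3.3e-10). Gata2 of the members was close to the level in CD135-high GFP-low wells, 52.6, 62.7 and 78.5 CPM.

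Other genes of the same lineages fell too. Apoe, an apolipoprotein gene of stem cells, was at 13, 40.9 and 50.4 CPM in members against 58.0, 84.7 and 149 (log2 difference -1.40 ± 0.15, edgeR adjusted p = 1.6e-10). Slc18a2, which loads monoamines into the granules of mast cells, was at 3.27, 13.6 and 21.9 CPM against 26.1, 43.6 and 60.5 (-1.66 ± 0.21, adjusted p = 3.5e-08). For both genes the 2 groups of plates did not overlap. Cpa3, the mast cell carboxypeptidase, was at 13.1, 24.9 and 44.2 CPM against 26.2, 75.6 and 202, lower on 8 of 8 plates although the ranges overlapped (-1.87 ± 0.16, adjusted p = 2.9e-13). Pf4, platelet factor 4, fell by 1.96 on the log2 scale and Itga2b, the platelet integrin CD41, by 1.21, each lower on 8 of 8 plates. The call of Pf4 was lost with DESeq2 (adjusted p = 0.35). Pf4 had 30 counts in 25 of the 331 member wells and was at 0 CPM in members of LC187 and LCE410. On LC187 the CD135-low GFP-high wells were at 2.26 CPM only. With wells thinned to equal depth, Pf4 had a count in 3.01% of members and 4.87% of CD135-low GFP-high wells on the median plate. That share was lower on 5 of 8 plates (adjusted p = 0.35, exact test).

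Among the list of stem cell genes, 1 of 19 tested was called higher and 4 lower, with a median log2 difference of -0.12 against 0.01 for all genes. The lower ones included Gata2, Apoe and Pdzk1ip1 (-1.19 ± 0.25), and the higher one was Hlf. Of the megakaryocyte and platelet list 2 of 8 were lower and 0 higher, and of the mast cell and basophil list 2 of 3 were lower and 0 higher. Of the erythroid list 1 of 8 was lower and 0 higher: Car2, a carbonic anhydrase (-0.25 ± 0.06), whose call was lost without LC187, LC188 or LCE407 (adjusted p up to 0.11).

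Hlf was higher in the members than in any other quadrant of the same plate. Its level was 173, 354 and 463 CPM in the members, 166, 294 and 449 in the CD135-low GFP-high wells, 171, 246 and 363 in the CD135-high GFP-low wells and 72.5, 156 and 238 in the CD135-low GFP-low wells. On each of the 8 plates the members had the highest value of the 4 quadrants, while the ranges over plates overlapped. The difference from CD135-low GFP-high wells was small, a log2 difference of 0.25 ± 0.06 (edgeR adjusted p = 0.032). That call was lost with DESeq2 (adjusted p = 0.23) and when LC188, LC189, LC190, LCE409 or LCE410 was left out (0.20 and adjusted p = 0.29 without LC188). It was lost as well with each well thinned to 3000 counts (0.18, adjusted p = 0.75), with terciles (0.096, adjusted p = 0.96) and on the LCE plates alone (0.15, adjusted p = 0.88).

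Of the lymphoid priming list, 2 of 16 were called higher and 0 lower, with a median log2 difference of 0.22. Satb1, a chromatin organiser of lymphoid progenitors, was at 106, 159 and 209 CPM in members against 79.1, 101 and 147, higher on 8 of 8 plates (0.56 ± 0.10, edgeR adjusted p = 7.1e-05). Mef2c, a MADS box factor of lymphoid and myeloid choice, was higher by 0.35 ± 0.08, a call lost without LC187 or LC189 (adjusted p up to 0.092). Dntt, the template-independent DNA polymerase of the earliest lymphoid cells, was nearly level: 36.1, 84.1 and 294 CPM in members and 29.0, 77.1 and 165 in CD135-low GFP-high wells. When each well was thinned to 3000 counts, the log2 difference of Satb1 was 0.25 and the call was lost (adjusted p = 0.82).

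Single genes from other roles rose in the members. Irf8, a factor of dendritic and monocyte fate, was at 14.9, 49.3 and 75.9 CPM against 14.8, 27.2 and 49.7, and higher on 8 of 8 plates (0.79 ± 0.17, adjusted p = 0.0039). Runx2 was higher by 0.51 ± 0.11 (adjusted p = 0.0052) and Il1r1, the interleukin 1 receptor, by 1.09 ± 0.25, the latter a call lost without LC189 or LCE409 (adjusted p up to 0.095). Il17re, a subunit of an interleukin 17 receptor, was higher by 1.03 ± 0.23. Trappc13 (0.64), Ppp1r2 (0.68), Ormdl3 (-0.79), Mt1 (-0.94) and Hist1h2bc (-0.92) were also among the largest called differences, and each of these calls was lost in 3 to 6 of the 8 fits with 1 plate left out.

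The granulocyte and monocyte list had 0 of 17 called higher and 5 lower, with a median of -0.20. On the LC plates alone 5 of 20 were lower (median -0.29), and on the LCE plates alone 0 of 12 were called (median 0.017, 0.19 with gates corrected for scatter and 0.13 with scatter matched). Mpo, myeloperoxidase, was at 124, 598 and 1014 CPM in members against 180, 753 and 1822 (-0.43 ± 0.07, adjusted p = 2.7e-05, lower on 7 of 8 plates). Ms4a3 fell by 1.11 and Prtn3, proteinase 3, by 0.31, both lower on 7 of 8 plates. With DESeq2 none of Mpo, Ms4a3, Prtn3 and Elane was called (adjusted p = 0.97, 0.67, 1 and 1). Prtn3 was lost without LC187, LC188 or LC190 (log2 difference -0.20 and adjusted p = 0.21 without LC187) and read 0.17 on the LCE plates alone. Nkg7 (-0.40), named after its value was seen, was lost in 7 of 8 such fits.

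Elane, neutrophil elastase, fell by 1.26 on the log2 scale (adjusted p = 3.7e-11) but was lower on 6 of 8 plates only. It was at 503, 242, 186 and 272 CPM in members of LC187, LC188, LC189 and LC190, against 1179.5, 583, 576 and 778. On the LCE plates it was at 0 in every quadrant of LCE409, at 143 CPM against 21.2 on LCE407, and at 64.7 and 25.2 against 211 and 98.1 on LCE408 and LCE410. The difference on the LCE plates alone was -0.15, and 1.35 there with gates corrected for scatter. On the median plate Elane had a count in 57.2% of members and 60.3% of CD135-low GFP-high wells (adjusted p = 0.69, exact test). With wells thinned to equal depth the shares were 34.6% and 36.3% (adjusted p = 0.13, exact test). The fall in summed counts thus does not show a lower level in most members.

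Cell division genes were higher in the members. Of the 26 genes of the G2 and M phase list, 26 had a positive log2 difference, 5 were called higher and 0 lower, and the median was 0.39. The 5 were Top2a, Ube2c, Tpx2, Hmmr and Nusap1. Top2a, DNA topoisomerase 2 alpha, was at 219, 450 and 618 CPM in members against 162, 345 and 520, higher on 8 of 8 plates (0.37 ± 0.06, edgeR adjusted p = 1.3e-05). Kif23, a kinesin of cytokinesis outside the list, was at 49.8, 86.6 and 116 CPM against 34.3, 49.4 and 67.2 (0.78 ± 0.13, adjusted p = 5.7e-05). Hmmr (0.67), Nusap1 (0.58), Ube2c (0.50) and Tpx2 (0.53), mitotic spindle and ubiquitin ligase genes, were each lost in 1 to 7 of the 8 fits with 1 plate left out. Of 19 S phase genes tested 0 were called in either direction, with a median of 0.04. The histone genes Hist1h2aj (0.57 ± 0.08) and Hist1h2af (0.62 ± 0.11) were higher as well, and since H2A genes are nearly identical in sequence, the split of counts among them is uncertain.

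**Figure D2:**
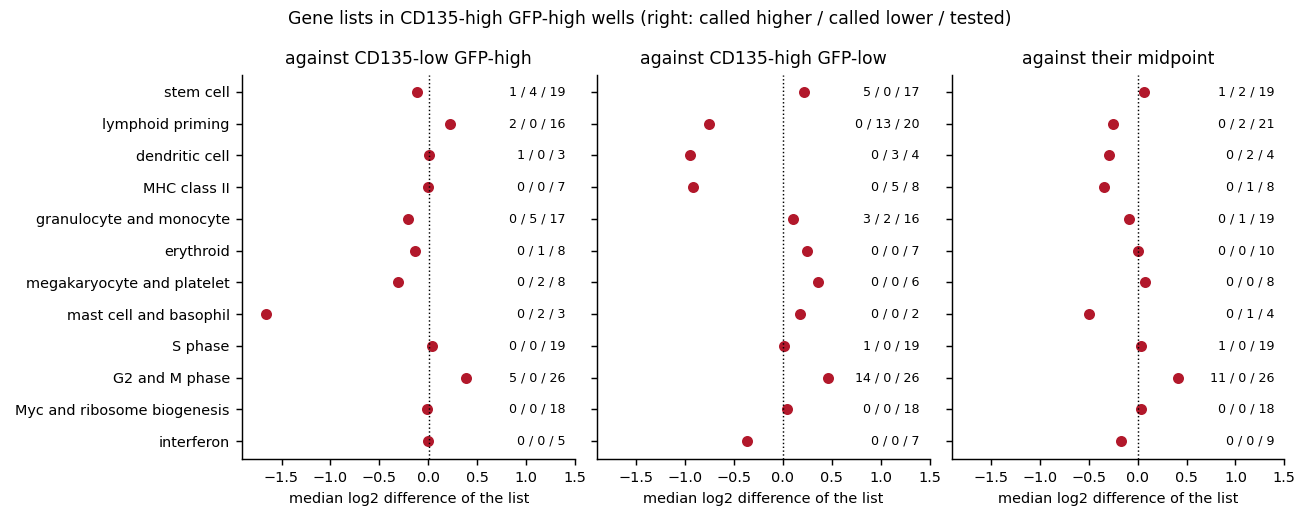
Median log2 difference of the tested genes of 12 lists (horizontal axis) in CD135-high GFP-high wells against each neighbour and against the midpoint of both, dotted line at the median of all genes, with the numbers called higher, called lower and tested at the right. The lymphoid priming list had 2 of 16 higher against CD135-low GFP-high and 13 of 20 lower against CD135-high GFP-low wells, while the G2 and M phase list lay above the line in all 3.

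The second neighbour, the CD135-high GFP-low wells, shares the high CD135 and reads lower for the reporter, with plate medians of GFP of 257 to 707 units. Against it the members held far less lymphoid, dendritic and MHC class II RNA and more of several stem cell genes. Of 9056 genes tested, 108 were higher in the members (1.19%) and 84 lower (0.928%), and 1010 had an unadjusted p under 0.05. Both comparisons use the same member wells, so their values are given side by side and not counted against each other.

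Dntt had the largest log2 difference of the 192 called genes. It was at 36.1, 84.1 and 294 CPM in the members and at 202, 431 and 603 CPM in CD135-high GFP-low wells. The members were lower on 8 of 8 plates, and the ranges overlapped only through LCE410, the highest member plate at 294 CPM. The log2 difference was -2.13 ± 0.10 (edgeR adjusted p = 4.9e-30), and -1.17 against CD135-high GFP-low wells matched to the members on CD135 (ratio of matched medians 0.998 on the median plate, but 0.693 on the lowest plate, where CD135 was not equalised).

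The lymphoid priming list had 0 of 20 tested called higher and 13 lower, with a median log2 difference of -0.76 against 0.00 for all genes. Satb1 was at 106, 159 and 209 CPM against 207, 282 and 338, and the groups overlapped only by the margin between 207 and 209 (-0.81 ± 0.08, edgeR adjusted p = 5.0e-13). Ighm, the immunoglobulin mu heavy chain gene, fell by 0.89, and Ccr9, a chemokine receptor of thymus-seeding cells, by 1.64. Cmah fell by 1.84 and Arpp21 by 1.55, each lower on 8 of 8 plates. Satb1 and Ighm, with Dntt, were also called on the LCE plates with wells matched on scatter (-0.65, -0.68 and -1.49).

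Several dendritic cell and antigen presentation genes were lower over the 8 plates. On LCE410 the members were higher in Irf8 (71.4 against 57.7 CPM) and Cd74 (79.8 against 51.6 CPM). Of the dendritic list 3 of 4 tested were lower and 0 higher: Irf8 (-1.21 ± 0.13, 49.6 CPM against 110 on average), Tcf4, an E protein (-0.69 ± 0.08), and Mpeg1, a pore-forming protein of phagocytes (9.98 CPM against 33.1, adjusted p = 3.8e-08). Of the MHC class II list 5 of 8 were lower and 0 higher, with a median of -0.92: Cd74, the invariant chain (-1.07 ± 0.18), H2-Ab1 (-0.93 ± 0.14), H2-Ob (-1.05 ± 0.18), H2-Aa (-0.96) and H2-Eb1 (-0.92), the last 2 named after their values were seen. H2-Aa and H2-Eb1 were lost without LC190 (log2 difference -0.68 and -0.69, adjusted p = 0.058 and 0.082), and H2-Eb1 without LC188 as well (-0.72). Apart from LCE410, Irf8 of the members was thus between its level in the 2 neighbours. The median of the MHC class II list against CD135-low GFP-high wells was -0.0039, with 0 of 7 called. On the LCE plates alone the MHC class II list had a median of -0.32 with 1 of 7 called, and with gates corrected for scatter Cd74 read 0.21 and H2-Eb1 0.35.

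Other genes with large called drops were Ncf1, a subunit of the phagocyte oxidase (-1.45 ± 0.18), Emp1 (-1.75 ± 0.35) and the somatostatin receptor gene Sstr2 (-1.45 ± 0.31). Each was lower on at least 7 of 8 plates. Genes with large called rises were Cdc25b, a phosphatase that starts mitosis (1.11 ± 0.25), Acvr1b, an activin receptor (0.94 ± 0.20), and Vamp5 (0.81 ± 0.14). Cdc25b was lost without LC188 (log2 difference 0.88, adjusted p = 0.095). Clec4e (1.04), Gng11 (0.91), Wdr92 (0.90) and Pdlim1 (0.78) were called too and were lost in 1 to 5 of the 8 fits with 1 plate left out.

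Of the stem cell list 5 of 17 were called higher and 0 lower, with a median of 0.22. Hlf was higher on 8 of 8 plates (0.45 ± 0.07, adjusted p = 4.5e-07), as were Meis1, a homeodomain factor of stem cells (131, 148 and 179 CPM against 88.2, 108 and 137, 0.47 ± 0.09), and Angpt1, angiopoietin 1 (113, 151 and 173 CPM against 82.9, 103 and 130, 0.54 ± 0.10). Mecom (0.74, 48.5 CPM against 28.9), named after its value was seen, was called higher as well. Against CD135-high GFP-low wells matched on CD135, Hlf read 0.23, Meis1 0.38 and Angpt1 0.32, and none was called (adjusted p = 0.15, 0.10 and 0.21), with the same limit of the matching.

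Kit RNA was at 179, 269 and 289 CPM in the members, 183, 211 and 247 in CD135-high GFP-low wells and 246, 273 and 309 in CD135-low GFP-high wells. The members were higher than the CD135-high GFP-low wells on 7 of 8 plates (0.27 ± 0.07, edgeR adjusted p = 0.018), a call lost with DESeq2 (adjusted p = 0.12) and without LC187, LC189, LC190 or LCE408 (0.23 and adjusted p = 0.12 without LC189). Against CD135-low GFP-high wells the log2 difference of Kit was -0.10 ± 0.07 (adjusted p = 0.74). RNA of the other sorted proteins was not called in either comparison where it was tested: Ly6a, which encodes Sca1, read 0.14 ± 0.14 and -0.31 ± 0.14, and Cd48 0.08 ± 0.11 and 0.09 ± 0.10, against CD135-low GFP-high and CD135-high GFP-low wells in turn. Slamf1, which encodes CD150, had 3 counts and Il7r 10 counts in all 331 wells, too few to test.

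Granulocyte genes went both ways against the CD135-high GFP-low wells. Of 16 tested, 3 were higher and 2 lower: Prtn3 (0.33 ± 0.06), the cathepsin G gene Ctsg (0.42 ± 0.09) and Mpo (0.27) were higher, and Plac8 (-0.24 ± 0.05) and the ETS factor gene Spi1 (-0.36) lower. With DESeq2 Prtn3 (adjusted p = 0.19) and Ctsg (0.90) were not called. Mpo was lost without LC189 (log2 difference 0.22, adjusted p = 0.090) and Spi1 in 6 of the 8 fits with 1 plate left out. Mpo and Spi1 were named after their values were seen.

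Cell division genes were higher than in these wells too. Of the G2 and M phase list 14 of 26 were called higher and 0 lower, with a median of 0.46. Ube2c, an E2 enzyme of the anaphase-promoting complex, was at 49.8, 113 and 175 CPM against 32.3, 61.9 and 98.0 (0.75 ± 0.12), and Top2a was higher by 0.38 ± 0.06 and Hmgb2 by 0.37 ± 0.07. Of 19 S phase genes 1 was higher and 0 lower, Rrm1, a ribonucleotide reductase subunit (0.41 ± 0.09), lost without LC190 (0.35, adjusted p = 0.063). The G1 kinase gene Cdk6 was higher by 0.17 ± 0.04 and its partner Ccnd2, cyclin D2, lower (-0.28 ± 0.06). Cdk6 was lost without LC187 (0.15, adjusted p = 0.059).

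A 3-way fit compared the members with the midpoint of both neighbours on the log scale, which asks where they lay off that midpoint. A gene that lies between its levels in the neighbours but off centre can be called too. Of 10102 genes tested, 69 were higher than the midpoint (0.683%) and 19 lower (0.188%), with 963 at an unadjusted p under 0.05. The 88 called genes became 47 without LC190 and 55 without LC188.

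Hlf lay 0.35 ± 0.06 above the midpoint (edgeR adjusted p = 3.9e-05, above on 8 of 8 plates). The call was lost with each well thinned to 3000 counts (0.32, adjusted p = 0.12), with terciles (0.28, adjusted p = 0.42) and without the wells richest in G2 and M phase RNA (0.32, adjusted p = 0.10). Among G2 and M phase genes 11 of 26 were called higher and 0 lower, with a median of 0.41, and they included Top2a (0.37 ± 0.05), Ube2c (0.61 ± 0.12), Hmmr (0.64 ± 0.13) and Mki67, the Ki-67 gene (0.32 ± 0.06). Kif23 read 0.63 ± 0.11 and Hist1h2aj 0.61 ± 0.07. Rrm1 (0.35 ± 0.08) was called but lost without LC187 or LC190 (adjusted p up to 0.17).

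Below the midpoint were genes that were high in 1 neighbour only. Dntt lay at -0.97 ± 0.11, near its level in CD135-low GFP-high wells, and Cpa3 at -0.86 ± 0.18, Gata2 at -0.51 ± 0.11 and Apoe at -0.64 ± 0.14, near their levels in CD135-high GFP-low wells. Tcf4 (-0.36 ± 0.07), Ncf1 (-0.83 ± 0.18), H2-Ab1 (-0.59 ± 0.13), Mpeg1 (-1.08) and Il12a, the p35 subunit of interleukin 12 (-0.49 ± 0.13), were lower as well. Leaving out LC190 ended the call of Gata2 (adjusted p = 0.097), LC188 or LC190 that of Apoe (up to 0.096), LC188 that of Cpa3 (0.058), LC188 or LCE408 that of H2-Ab1 (up to 0.085), and LC187, LC188, LC190 or LCE409 that of Mpeg1 (up to 0.15). Il12a was lost in 6 of the 8 such fits and Elane (-0.64 ± 0.11) read 0.66 on the LCE plates alone.

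Wells rich in cell division RNA made up a larger share of the members than of either neighbour. Wells were ranked in each plate by the share of their counts in the G2 and M phase list. Of the 331 members, 161 were in the third of wells richest in this RNA, 42.4% to 62.9% of members per plate with a median of 46.1%, against 26.8% in CD135-high GFP-low, 33.0% in CD135-low GFP-high and 41.4% in CD135-low GFP-low wells on the median plate. With the third of wells richest in this RNA left out of every quadrant, the medians of the list were 0.04 against CD135-low GFP-high (0 of 13 called), 0.10 against CD135-high GFP-low (0 of 11) and 0.09 against the midpoint (0 of 20). These wells were removed by the same list, so the fall follows from how they were chosen and supports nothing further.

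On the 4 LCE plates, forward scatter area, a measure of cell size, had member medians of 136500 to 165000, against 132000 to 136000 in CD135-low GFP-high and 133000 to 134000 in CD135-high GFP-low wells. The members were larger on 4 of 4 plates in both (mean difference 0.51 and 0.52 of a plate's interquartile range, exact sign-flip permutation test, two-sided, p = 0.12, the smallest that 4 plates allow). Within LCE plates the rank correlation over wells of forward scatter was 0.18 with GFP and 0.19 with CD135 on the median plate, and 0.65 with the counts of a well. Wells with more forward scatter thus read slightly higher in both sort channels and were deeper.

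The first of 2 fits on the LCE plates that bear on size was added after the data were seen. When each member was set against the nearest neighbouring well in forward and side scatter, the median of the G2 and M phase list was 0.30 against CD135-low GFP-high (0 of 17 called), 0.23 against CD135-high GFP-low (0 of 18) and 0.32 against the midpoint (0 of 19), compared with 0.67, 0.55 and 0.63 on the LCE plates without matching. When GFP and CD135 were first corrected for scatter and the quadrants drawn again, 80 of the 139 LCE members (57.6%) remained members, the redrawn members were smaller than every other quadrant (median forward scatter 126750 against 133500 to 136000), and the medians of the list were -0.15, -0.25 and -0.14. The correction therefore did not hold size equal, and the matched fits tested fewer genes than the 23 to 26 of the unmatched ones. Hlf read 0.25, 0.78 and 0.51 after matching and 0.48, 0.87 and 0.67 after correction, in the same order of comparisons. The part of cell size in the cell division and Hlf differences was not settled by these fits, and it was not tested on the LC plates, for which no scatter was used here.

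**Figure D3:**
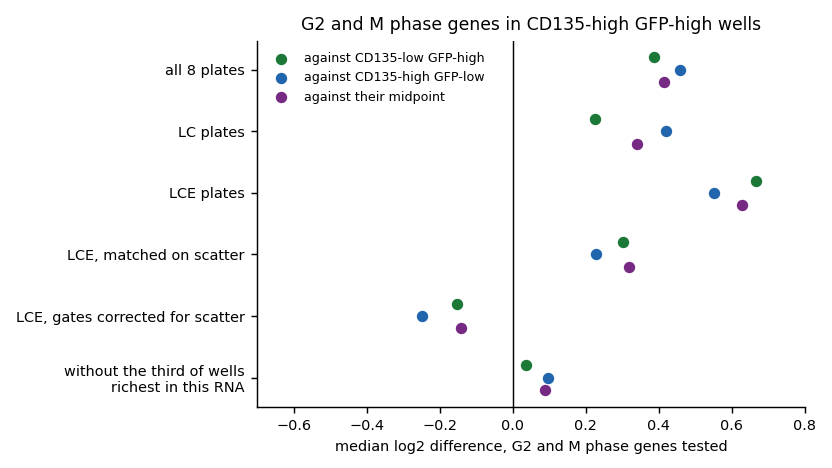
Median log2 difference of the tested G2 and M phase genes (horizontal axis, zero line in black) in CD135-high GFP-high wells against each neighbour and their midpoint, over all 8 plates and under 5 other choices of plates or wells. The points lay at 0.39 to 0.46 over all plates, at 0.23 to 0.32 with LCE wells matched on scatter, below 0 with scatter-corrected gates, and at 0.04 to 0.10 without the wells richest in this RNA, which were removed by the same list.

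Against all 2384 other wells, 65 of 10741 genes were higher in the members (0.605%) and 48 lower (0.447%), with 939 at an unadjusted p under 0.05. The higher genes included Hlf (0.47 ± 0.06, edgeR adjusted p = 1.2e-08, but 0.036 and adjusted p = 0.99 with terciles), Kif23 (0.70 ± 0.12), Ube2c (0.59 ± 0.11), Top2a (0.40 ± 0.06) and Mki67 (0.31 ± 0.07). From the G2 and M phase list, 10 of 26 passed as higher and 0 as lower (median 0.39). Ifitm1, a membrane protein of stem cells, was at a mean of 420 CPM against 347 (0.27 ± 0.06), but read 0.027 with each well thinned to 3000 counts (adjusted p = 0.998) and -0.15 with terciles. Of the stem cell list 3 of 20 were higher (Hlf, Ifitm1 and Meis1) and 2 lower (Gata2 and Apoe, -0.49 and -0.69). Meis1 (0.35) was lost without LC187, LC189 or LCE409 (adjusted p up to 0.084) and Gata2 without LC190 (-0.42, adjusted p = 0.11), and both were named after their values were seen.

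The lower genes with the largest differences mark committed cells. Car1, the carbonic anhydrase of erythroid progenitors, was at a mean of 11.7 CPM against 48.1 (-2.01 ± 0.20), and Cd79a, which signals for the B cell antigen receptor, at 3.98 against 19.5 (-2.41 ± 0.38). Igll1, the surrogate light chain (-1.62), Igkc (-1.55), Ly6c2, a monocyte antigen (-1.46), and Jchain, of plasma cells (16.0 CPM against 43.8), were lower as well. The B lineage list had 3 of 5 lower, the granulocyte and monocyte list 7 of 19, the MHC class II list 5 of 8 and the lymphoid priming list 6 of 21, each with 0 higher. On the LCE plates alone the granulocyte and monocyte list had 0 of 15 called and a median of 0.19 (LC plates 12 of 22 lower, -0.50), the MHC class II list 0 of 9 (-0.44) and the B lineage list 0 of 6. Without the wells that held other cell types' genes, 0 of 1 B lineage and 1 of 8 MHC class II genes were lower. Dntt (-1.28 ± 0.10), Ighm (-0.91 ± 0.07), Cd74 (-1.23 ± 0.15), Irf8 (-0.71 ± 0.13) and Cpa3 (-1.03 ± 0.16) were among them. The summed B lineage list was at 29.7 to 139 CPM in members and 71.9 to 1525 CPM in CD135-low GFP-low wells, and the defining gene Cd79a had a count in 12 of the 331 members. Without the wells that held other cell types' genes, Igkc read -0.15, Jchain -0.05, Ighm -0.37 and Cd74 -0.53. Hlf read 0.46 and Car1 -2.19 in that fit. The removed wells were chosen by lists that hold the B lineage genes and Jchain. The fall of those genes thus follows from the choice and supports nothing further. Igkc, Ighm and Cd74 are not on these lists, and the part of the choice in their change was not tested. Without the wells richest in G2 and M phase RNA, Car1 read -1.07 and was not called (adjusted p = 0.30). Car1 had a count in 13.9% of members, 12.3% of CD135-high GFP-low and 13.7% of CD135-low GFP-high wells. With wells thinned to equal depth, its share passed the test against neither neighbour (adjusted p = 0.95 and 0.15, exact test). The summed erythroid list was at 415 to 1005 CPM in members and 655 to 4878 CPM in CD135-low GFP-low wells. The part of each quadrant in the Car1 difference was not tested.

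At the surface the mean differences of cKit, Sca1, IL7R, CD11b and PIR-A were positive against both neighbours, though not all passed the test. cKit was higher than in CD135-high GFP-low wells on 8 of 8 plates, with plate medians of 5045, 6512 and 8319 units (lowest, median, highest) against 3992, 4496 and 5478 (mean difference 0.69 ± 0.19 interquartile ranges, SD, exact sign-flip permutation test, two-sided, adjusted p = 0.029 over 30 tests). Against CD135-low GFP-high wells the cKit difference was 0.14 ± 0.34 (5 of 8 plates higher, exact test, adjusted p = 0.29). For Sca1 the order of the neighbours was reversed: it was 0.54 ± 0.18 above CD135-low GFP-high wells on 8 of 8 plates (adjusted p = 0.029, exact test) and 0.20 ± 0.31 above CD135-high GFP-low wells (6 of 8, adjusted p = 0.19, exact test). In ranks within the plate, 72.2% of members lay above the plate's median of cKit and 67.1% above that of Sca1.

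CD150, a stem cell antigen, was lower than in CD135-low GFP-high wells on 7 of 8 plates (-0.32 ± 0.24, exact permutation test, adjusted p = 0.047). CD11b staining was higher than in both neighbours on 8 of 8 plates (0.42 ± 0.17 and 0.49 ± 0.31, adjusted p = 0.029 in both by the exact test), and IL7R staining was 0.19 ± 0.09 above CD135-low GFP-high wells on 8 of 8 plates (adjusted p = 0.029, exact test). Against CD135-high GFP-low wells the IL7R difference was 0.19 ± 0.19 (6 of 8 plates higher, adjusted p = 0.13, exact test). Itgam, which encodes CD11b, was not called (-0.09 ± 0.27 and -0.71 ± 0.25 against CD135-low GFP-high and CD135-high GFP-low wells), and Il7r had 10 counts in all members. The macrophage list, with 0 of 1 tested gene called against CD135-low GFP-high and 0 genes tested against CD135-high GFP-low wells, summed to 48.9 to 170 CPM in members, 55.7 to 158 in CD135-low GFP-high and 32.3 to 120 in CD135-high GFP-low wells, with 0 of its 11 genes at 0 in members. These ranges overlapped, and the part of macrophage RNA in the CD11b staining was not tested. CD16/32, the Fc gamma receptors, lay 0.45 ± 0.04 above CD135-high GFP-low wells on 4 of 4 LCE plates and was level with CD135-low GFP-high wells (-0.05 ± 0.04). PIR-A was 0.42 ± 0.12 and 0.14 ± 0.09 above the 2 neighbours in the same order, on 4 of 4 plates. The part of cell size in these channels was not tested, and with 4 plates no exact p can fall under 0.12.

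**Figure D4:**
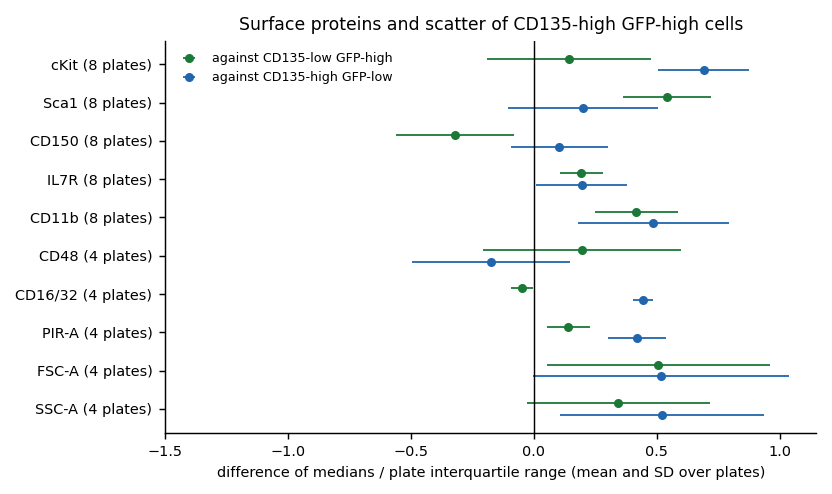
Difference of plate medians between CD135-high GFP-high cells and each neighbour for 8 surface proteins and 2 scatter channels, in units of the plate's interquartile range, mean and SD over the plates given in brackets. The cKit difference was 0.69 against CD135-high GFP-low and 0.14 against CD135-low GFP-high cells, and the order was reversed for Sca1, at 0.20 and 0.54.

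CD48 and CD150, the antigens of the classical gates, could be read on the LCE plates. Each was split at the plate's median, which is not the classical gate. Of 139 members pooled over plates, 58 were low for both, 55 high for both, 14 CD48-high CD150-low and 12 CD48-low CD150-high. On the median plate these classes held 44.2%, 35.3%, 7.32% and 8.92% of members. The CD48-low CD150-high class, where stem cells are sought, held 28.6% of CD135-low GFP-high wells, and the CD48-high CD150-low class held 27.4% of CD135-high GFP-low wells. Most members were thus low for both antigens or high for both, as were most wells of each other quadrant. On the median plate, wells low for both and high for both were 31.0% and 30.6% of CD135-high GFP-low wells. They were 31.4% and 29.3% of CD135-low GFP-high and 28.3% and 41.7% of CD135-low GFP-low wells.

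Within the members the wells were mixed in their transcripts. To compare wells of unequal depth, each well was thinned to 3000 counts, which kept 329 of 331 members and 1016 of 1025 wells of each neighbour. Hlf then had a count in 61.8% of members on the median plate (45% to 75%), in 53.5% of CD135-low GFP-high and in 46.0% of CD135-high GFP-low wells. Members exceeded the CD135-high GFP-low wells on 8 of 8 plates (adjusted p = 0.036, exact sign-flip permutation test over 28 tests) and the CD135-low GFP-high wells on 6 of 8 (adjusted p = 0.13, exact test). Without thinning the 3 shares were 86.8%, 84.5% and 75.6%.

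Several lineage genes were found in a smaller share of members than of the neighbour rich in them. Dntt had a count in 19.6% of thinned members (12.0% to 64.7%) against 53.9% of CD135-high GFP-low wells, and Satb1 in 27.5% against 47.5%, both lower on 8 of 8 plates (adjusted p = 0.036, exact test). Against CD135-low GFP-high wells, Gata2 had a count in 18.5% against 29.6% and Cpa3 in 3.52% against 13.9%, both lower on 8 of 8 plates, and Irf8 in 12.5% against 9.14%, higher on 8 of 8 (adjusted p = 0.036 in each, exact test). Irf8 against CD135-high GFP-low wells, at 12.5% and 20.2%, did not pass (lower on 7 of 8 plates, adjusted p = 0.14, exact test). The Satb1 share at equal depth was 27.5% in members and 26.8% in CD135-low GFP-high wells (adjusted p = 0.57, exact test), where the unthinned shares were 68.3% and 53.0%. Mpo, at 69.2% in members, 68.9% in CD135-low GFP-high and 60.2% in CD135-high GFP-low wells, did not pass the test in either comparison (adjusted p = 0.95 and 0.25, exact test). Cd79a, a B cell gene that these cells should lack, had a count in 1.93%.

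Pairs of transcripts were counted in the same wells. Of 329 thinned members, the granulocyte genes Mpo and Elane shared 97 wells (29.5%, where the product of their shares is 24%). Dntt and Mpo, from different lineages, shared 44 (13.4%, product 16.3%), and Mpo had a count in 55% of wells with Dntt and 70.7% of those without. Dntt and Hlf shared 49 wells (14.9%, product 14.3%), and Mpo and Hlf 121 (36.8%, product 39.2%). Hlf had a count in 61.3% of wells with Dntt and 57.8% of wells without it. These shares are a description of sparse counts pooled over plates, and the plate sets differed in these genes. In members, Mpo was at 893 to 1014 CPM on LC and 124 to 303 CPM on LCE plates. Elane was at 186 to 503 and 0 to 143 CPM, and Dntt at 36.1 to 67.1 and 101 to 294 CPM. Pooling such plates can move a shared count away from the product without a link inside a plate, and its part was not tested. Counts were concentrated to unequal degrees. The members richest in a gene, 10% of the wells, held 30.8% of Hlf counts, 32.6% of Flt3 counts and 44.4% of Dntt counts. For Elane, Mpo and Cpa3 they held 42.6%, 45.6% and 64.3%. In CD135-low GFP-high wells the richest 10% held 31.0% of Hlf, 38.6% of Flt3 and 39.3% of Dntt counts. For Elane, Mpo and Cpa3 the values there were 76.2%, 61.0% and 71.6%. These values were pooled over plates too.

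**Figure D5:**
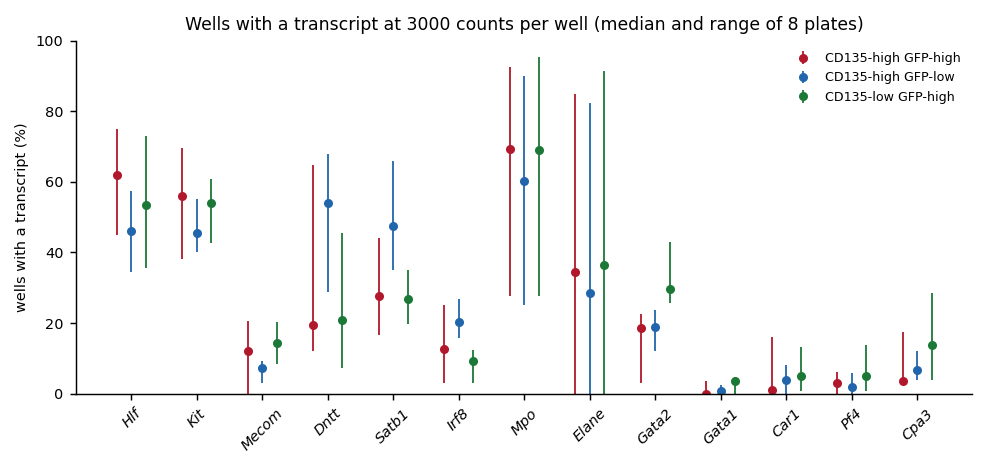
Share of wells with at least 1 count of a gene (percent, linear axis) after thinning to 3000 counts per well, points at the median and lines from the lowest to the highest of 8 plates, for members and both neighbours. Members lay above both neighbours in the Hlf median, at 61.8%, and near the CD135-low GFP-high wells in Dntt, at 19.6%.

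Finally the members were split at their own median within each plate, once by GFP and once by CD135. By GFP, of 3565 genes tested, 22 were higher in the wells above the median (0.617%) and 2 lower (0.0561%), with 261 at an unadjusted p under 0.05. Ube2c was higher by 1.17 ± 0.18 (edgeR adjusted p = 1.3e-05, 8 of 8 plates), Ckap2l, of the spindle, by 1.16 ± 0.25, Cenpa, the centromeric histone, by 1.09 ± 0.19 and Hist1h2ah by 0.90 ± 0.11. Of 19 genes of the G2 and M phase list 4 were higher (Ube2c, Top2a, Cdk1 and Hmgb2, at 1.17, 0.50, 0.78 and 0.55) and 0 lower, with a median of 0.55. Cdk1 was lost without LC188, LC189 or LCE407 (adjusted p up to 0.093). Mpo (0.42) was higher and was lost without LC189 or LC190 (0.32 and 0.33), and Map4k1, a kinase of the lymphoid receptors (-1.08 ± 0.27), was lower and lost in 3 of the 4 such fits that tested it. Top2a, Cdk1 and Hmgb2 were named after their values were seen. Hlf was not called (-0.17 ± 0.13, adjusted p = 0.81), and on the LC plates alone 3 genes were called.

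By CD135, 14 of 3733 genes were higher in the wells above the median (0.375%) and 0 lower, with 246 at an unadjusted p under 0.05, and DESeq2 called 0. They included H2A histone genes, such as Hist1h2ap (0.57 ± 0.07), Hist1h2an (0.62 ± 0.09) and Hist1h2ae (0.68 ± 0.10), whose near-identical sequences leave the split of counts uncertain, with Incenp, of the chromosomal passenger complex (0.90 ± 0.23), which was lost in 2 of the 4 fits that tested it with 1 plate left out. Of 19 G2 and M phase genes 0 were called, with a median of 0.30. Neither the lymphoid priming list (median 0.16, 0 of 11 called) nor the stem cell list (0.04, 0 of 11) held a called gene, nor was Hlf called (0.15 ± 0.11, adjusted p = 0.90). Scatter was not matched in these splits, and its part was not tested.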

How the data were processed

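Per the labels' protocols, single LSK cells were index sorted into plates and sequenced by CEL-seq2. The deposited tables hold whole-number counts per gene and well, with Ensembl identifiers. The submitters' processing notes name GRCh38, a human build, although the identifiers are of mouse, so no coordinates are given. Which aligner and counter were used, and whether molecular identifiers were collapsed, is not given in the sources. The authors also deposited fluorescence and scatter intensity values for each well, on a linear scale. Counts and sort records were joined within a plate by well name on LC plates and by cell barcode on LCE plates, where 20 records moved to another well name and 13 without a barcode were left out, which gave 2987 wells, and 2715 had at least 1000 counts and 500 genes. Of 27318 identifiers, 27249 matched a symbol, and spike-in counts were left out.

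Counts of each quadrant were summed per plate and tested with edgeR 4.0.16 in R 4.3.3 (genes kept by filterByExpr, TMM factors, a plate block, the quasi-likelihood test, and Benjamini-Hochberg adjustment over all genes tested at 0.05). Every adjusted p of a gene is from edgeR unless DESeq2 (1.42.0) or an exact test is named. Standard errors were the log2 difference over the root of F. The plate pairs the sums because both come from the same plate: deviations of quadrants of 1 plate correlated at 0.183 to 0.648. Fluorescence, depth and shares of wells were tested by an exact two-sided sign-flip permutation over plates. In simulated counts for the comparison with CD135-low GFP-high wells (8878 genes), 16.9% of genes changed 1.5-fold, 74.6% of those changed 2-fold and 88.2% of those changed 4-fold were recovered. The dispersion and plate effects of these counts were chosen and not estimated from the data, so the recovery holds for those settings only.

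The members and the gene lists were chosen with earlier results of these data known. Named genes were the markers, the genes encoding the stained proteins, up to 12 called genes per direction (8 outside the first comparison) with the largest difference, at least 20 CPM and 1 sign on at least 7 plates, and the list members with the smallest p. Predicted genes (Gm and Rik symbols) were passed over, and genes outside the rule are said to be named after their values were seen. Alternatives covered the count tool, normalization, filters, block, plate sets, plates left out, depth, well filters, gates, scatter, dividing wells, wells with genes of other cell types and matching. Some genes of the lists are not reported here by name.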

Additional observations from a re-analysis of the deposited data

Results flagged for a closer look

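In 16 results 1 of the 8 plates stood apart from the others by more than Dixon's 95% limit, a rule that chance meets in about 1 in 20 groups. The number of results screened is not given here, so the 16 cannot be set against that rate. Values are log2 differences of that plate.

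Against CD135-low GFP-high wells, Elane was 2.70 on LCE407, while the other plates ran from -1.92 to 0. Pdzk1ip1 was -4.16 on LC187, with the others between -1.65 and -0.36, and Tpx2 was -1.92 on LCE408 against 0.28 to 0.92 elsewhere. Tpx2 was near the floor in members of LCE408, at 4.98 CPM against 21.6. Hist1h2af was 1.93 on LCE409 (others -0.14 to 0.84), and Nkg7 was -1.29 on LCE410 (others -0.50 to -0.07).

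Against CD135-high GFP-low wells, LCE408 stood apart in Cdc25b, at -2.81 (others 0.04 to 1.98), and in Acvr1b, at -1.48 (others 0.52 to 1.44). Cdc25b was at 0 CPM in members of LCE408 against 6.01, so the size of that value is set by the floor. LC189 stood apart in Ncf1, at -2.63 (others -1.54 to -0.70), and in Ighm, at -2.41 (others -1.28 to -0.45). Emp1 was -4.42 on LC190 (others -2.14 to -0.26) and Ctsg was 2.30 on LCE407 (others -0.59 to 0.47).

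Against all other wells, LCE410 stood apart in Dntt and Cd74. Dntt was -0.20 there (others -1.87 to -1.10) and Cd74 was 0.41 (others -1.85 to -0.92). Elane was 2.77 on LCE407 (others -1.96 to 0), Ly6c2 was -2.92 on LCE409 (others -1.82 to -0.91), and Mki67 was -0.30 on LCE408 (others 0.22 to 0.69).

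The plate sets differed in 3 named results by an interaction term in edgeR, given as LCE minus LC plates. Prtn3 against CD135-low GFP-high wells differed by 0.66 (adjusted p = 0.035), Dntt against CD135-high GFP-low wells by 0.98 (adjusted p = 0.033, differences of -2.61 on LC and -1.64 on LCE plates), and Elane against all other wells by 1.85 (adjusted p = 4.3e-04). In all, 2 of 9160, 2 of 9056 and 3 of 10741 genes differed between plate sets in these comparisons. The plate sets also differ in staining panel and depth, which cannot be told apart here.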

How the results depend on the processing

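The 6 counts of called genes are given in 1 order: against CD135-low GFP-high (80), all other wells (113), CD135-high GFP-low (192) and the midpoint (88), then within the members by GFP (24) and by CD135 (14). RLE factors, a filter at 50 CPM, stricter well filters, the mitochondrial limit and medians over all sorted wells left all 6 within 1.5 times. The plate is the replicate block, and without the pairing by plate (no replicate block) the counts were 3, 0, 5, 0, 0 and 0. DESeq2 called 36, 49, 85, 74, 14 and 0. With no filter on low counts the second and the third rose to 191 and 295, and the median of all genes against all other wells shifted by over 0.1. LC plates alone gave 48, 113, 107, 36, 3 and 9, and LCE plates alone 31, 18, 39, 29, 19 and 8. Thinning each well to 3000 counts gave 23, 36, 64, 28, 13 and 6. Terciles gave 33, 21, 60 and 81 in the first 4, and no fit within the members. Correcting GFP and CD135 for scatter on LCE plates gave 53, 57, 69, 36, 10 and 15, with 7, 6, 28 and 1 of the original calls kept and 13, 20, 16 and 19 of them opposite in sign in the first 4. Leaving out the third of wells richest in G2 and M phase RNA, which removes cell division differences by construction, gave 21, 26, 43, 7, 2 and 0. Without wells holding other cell types' genes the last count was 0. Matching on CD135 gave 113 against CD135-high GFP-low wells, and matching on scatter on LCE plates, chosen after seeing the data, gave 3, 11 and 1 against CD135-low GFP-high, CD135-high GFP-low and the midpoint. Leaving out 1 plate gave 61 to 95, 76 to 122, 133 to 181, 47 to 77, 19 to 26 and 10 to 16, and the midpoint count fell below the 1.5-fold margin without LC188 (55) or LC190 (47). Fewer plates or wells entered many of these fits, and the cause of the other changes was not tested.

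Directions turned in these named genes. With gates corrected for scatter, against CD135-low GFP-high wells the log2 differences were Ppp1r2 -0.32, Hist1h2af -0.97, Nusap1 -0.15, Hist1h2aj -0.87, Tpx2 -0.25, Top2a -0.35, Elane 1.35, Prtn3 0.39 and Car2 0.045. Against CD135-high GFP-low wells they were Cd74 0.21, Rrm1 -0.29, Top2a -0.52, Ube2c -0.11, Hmgb2 -0.59, Ccnd2 0.019, H2-Aa 0.047 and H2-Eb1 0.35. Against all other wells they were Top2a -0.54, Ube2c -0.30, Mki67 -0.22 and Elane 0.57, and against the midpoint Top2a -0.43, Ube2c -0.028, Mki67 -0.077, Rrm1 -0.36, Hist1h2aj -0.85, Elane 1.51 and H2-Ab1 0.0010. Without the wells richest in G2 and M phase RNA, Hist1h2af read -0.13 and Hist1h2aj -0.0015 against CD135-low GFP-high wells, and Ube2c -0.10 against all other wells and -0.061 against the midpoint. With scatter matched, Elane read 0.67 and Prtn3 0.30 against CD135-low GFP-high wells, Rrm1 -0.13 against CD135-high GFP-low wells, and Rrm1 -0.13 and Elane 1.17 against the midpoint. On LCE plates alone, Prtn3 read 0.17 against CD135-low GFP-high wells, and Elane 0.41 against all other wells and 0.66 against the midpoint. With terciles Ifitm1 read -0.15 against all other wells.

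There were 33 to 54 member wells per plate. Small differences were mostly missed in simulated counts (16.9% of 1.5-fold changes recovered against CD135-low GFP-high wells). The spread of those counts was chosen and not estimated from the data, so the power of this design was not measured. Slamf1 (3 counts) and Il7r (10 counts) could not be tested.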
